A study of Mus musculus with 2 samples.

Results

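Mature neutrophils with few or no transcripts of the activation genes Ccl3, Ccrl2, Nlrp3 and Il1a made up 750 of the 22104 barcodes kept from 2 colon tumour libraries, 326 of 11466 in the KO library and 424 of 10638 in the WT library. The KO library came, by its label, from mice that lack Gsk3b in the intestinal epithelial cells (IEC-/-), and the WT library from mice that keep it there (IEC+/+). Both sets of mice carried colon tumours induced with AOM, a carcinogen, and DSS, a colitis agent, and the tumours were digested and profiled by droplet 3′ single-cell RNA sequencing. The labels give 1 library per genotype, with no age, sex, Cre driver or number of animals, so no difference between the libraries has a replicate check and none was tested. Neutrophils are not epithelial cells, so the labelled deletion does not lie in them.

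A barcode was a member when it held at least 1000 UMIs (unique molecules counted), at least 200 genes and at most 25% mitochondrial UMIs, when S100a8, S100a9, G0s2, Csf3r, Acod1 and Il1r2 made up at least 2% of its UMIs, and when it passed 3 upper limits. It could hold at most 1 UMI of the macrophage genes Csf1r, C1qa, C1qb and C1qc, under 2 UMIs of the immature granule genes Ngp and Camp, and under 3 UMIs of Ccl3, Ccrl2, Nlrp3 and Il1a. These measured values chose the members, so the levels of those genes are given only as a description. Neutrophils with 3 or more UMIs of the last 4 genes and under 2 of Ngp and Camp are called activated below. Those with 2 or more of Ngp and Camp are called immature whatever their activation genes, of which the median immature barcode held 12.5 UMIs in the KO library and 5 in the WT library.

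Neutrophils are short-lived phagocytes that leave the bone marrow carrying granules made in sequence: primary granules first, then specific granules (Ltf, Lcn2, Camp, Ngp) and last gelatinase granules (Mmp8, Mmp9). In inflamed tissue they take up signals through chemokine and pattern receptors and switch on NF-kB target genes, among them the chemokines Ccl3, Ccl4 and Cxcl2 that call in more leukocytes. In tumours, neutrophils with high Cd274 (PD-L1) and iron storage genes have been described beside neutrophils that still resemble those of the blood.

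The 5 markers set for neutrophils were present in both libraries and far above the free RNA of the droplets without cells (barcodes under 100 UMIs). S100a8, S100a9, G0s2 and Csf3r helped to choose the members, so their height is no check on the identity of the members. Only Trem1 lies outside the rule. Levels are given as CPM, the UMIs of a gene summed over a class and scaled to the class total; 1 UMI stands for 1 transcript end, so no correction for gene length applies. S100a8 and S100a9, which form the calcium-binding protein calprotectin, stood at 36022 and 53283 CPM in KO members, against 61939 and 80689 CPM in WT members. Csf3r, the receptor for G-CSF, stood at 848 CPM in KO members and 632 CPM in WT members, and at 41.5 and 29.0 CPM in the empty droplets of the KO and WT library. Trem1, a receptor that amplifies inflammatory signals, had 856 CPM in KO members and 832 CPM in WT members, against 68.6 and 63.0 CPM in the empty droplets. G0s2, a lipase inhibitor, had 4189 CPM in KO members and 6278 CPM in WT members. The primary granule genes of promyelocytes summed to 6.42 CPM in KO members and 7.19 CPM in WT members. The 4 eosinophil markers (Prg2, Epx, Ccr3 and Siglecf) summed to 6.42 CPM in KO and 5.14 CPM in WT members, from 4 and 5 UMIs. That is above the empty droplets, at 2.18 and 1.34 CPM. Epx and Ccr3 were at 0 in both libraries, and Siglecf was found in 4 members of each.

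The name fits the 4 gated genes and not chemokines as a whole. Cxcl2, a neutrophil-attracting chemokine outside the rule, stood next in mean level after S100a9 and S100a8 once mitochondrial and ribosomal genes were set aside, at 30280 CPM in KO members and 32828 CPM in WT members, against 4215 and 4080 CPM in the empty droplets. It was found in 99.4% of KO members and 98.1% of WT members. Il1b, the inflammatory cytokine, stood at 8051 CPM in KO members and 9520 CPM in WT members. Ccl3 itself, at 94.7 CPM in KO members and 92.5 CPM in WT members, lay below its level in the empty droplets, 351 and 326 CPM.

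The limit fell where neighbouring counts were about equally common. Of the neutrophils past the other gates, 90, 116 and 120 KO barcodes held 0, 1 and 2 UMIs of the activation genes, and the next 3 counts (3, 4 and 5 UMIs) held 139, 142 and 152. In the WT library 129, 152 and 143 barcodes held 0, 1 and 2 UMIs and 141, 121 and 118 held 3, 4 and 5. There was no gap at the limit in either library. These are counts of the genes that set the limit, so they do not show whether the members are a type of their own; the members are described here as a range. Just inside the limit, at 2 UMIs, Cxcl2 stood at 31766 CPM in KO and 36630 CPM in WT barcodes; just outside, at 3 UMIs, it stood at 40795 and 43629 CPM. At the lower limit on neutrophil genes, 12 KO and 7 WT members had 2 to 2.5% of their UMIs in those genes, and 16 KO and 13 WT barcodes missed the limit with 1.5 to 2%.

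**Figure D1:**
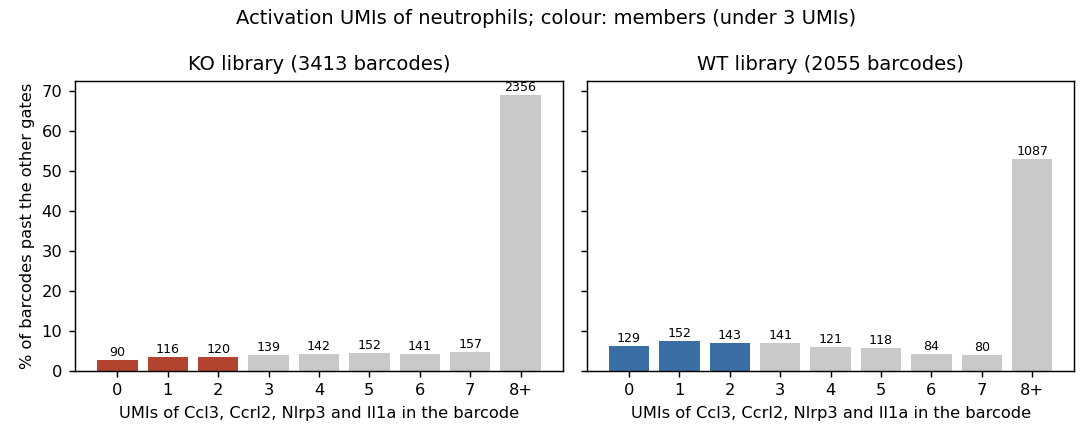
Share (in %, y axis) of the neutrophil barcodes with under 2 UMIs of Ngp and Camp that held each number of UMIs of Ccl3, Ccrl2, Nlrp3 and Il1a (x axis), with the number of barcodes above each bar, KO library left and WT library right. The coloured bars are the 326 KO and 424 WT members; the counts run on past the limit of 3 UMIs without a gap.

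Depth differed between the libraries and bears on every value below. The median member held 1558 UMIs in the KO library and 2172.5 UMIs in the WT library, and the members summed to 622791 and 972930 UMIs. No member barcode occurred in both libraries, and 37 of all kept barcodes did. Gsk3b, the targeted gene, stood at 237 CPM in KO and 261 CPM in WT epithelial barcodes; the 3′ tags do not show whether the deleted part is transcribed, so this does not check the labels. Epithelial markers summed to 3919 CPM in KO members and 2056 CPM in WT members, against 11309 and 10093 CPM in the empty droplets. Erythroid markers summed to 24.1 CPM in KO members and 2440 CPM in WT members, against 100 and 508 CPM in the empty droplets. T cell markers summed to 157 and 58.6 CPM, against 84.9 and 99.9 CPM there, and macrophage markers to 286 and 440 CPM, against 1389 and 2884 CPM. WT members thus lay above the empty droplets in erythroid markers, and KO members in T cell markers. Monocyte markers were above the empty droplets in both libraries, at 80.3 against 34.9 CPM in KO and 119 against 46.3 CPM in WT members. Endothelial markers were above them in KO members, at 70.6 against 22.96 CPM, and below them in WT members, at 17.5 against 24.5 CPM. The part of these markers' cells and free RNA in the differences below was not tested.

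A few deep barcodes carried much of the KO sum. In the KO library 12 members held over 5000 UMIs, with 17.7% of the members' UMIs and 51.9% of their epithelial marker UMIs; in the WT library 5 members did, with 4.65% and 19.8%. Scrublet, a doublet caller, marked 8 of those 12 and 4 of those 5. Values without these barcodes are therefore given beside the results they move; that comparison was added after the data were seen.

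Fewer of the KO neutrophils were in the low range. The members were 9.48% of KO neutrophils (95% exact binomial interval 8.52 to 10.5%, 326 of 3439) and 18.1% of WT neutrophils (16.6 to 19.8%, 424 of 2337). Activated neutrophils were 89.8% in the KO library and 69.8% in the WT library, and immature ones 0.756% and 12.1%. Because the limits count UMIs and the KO barcodes were shallower, each barcode was also thinned to 1000 UMIs before the gates. The members were then 21.3% of KO neutrophils (19.9 to 22.6%) and 41.1% of WT neutrophils (39.2 to 43.0%). As a share of all kept barcodes the members were 2.84% in the KO library (2.55 to 3.16%) and 3.99% in the WT library (3.62 to 4.37%). The intervals cover counting error only, and a share can differ between 2 libraries through sampling, digestion or the animals as well as genotype, which cannot be told apart here.

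Within each library the members had lower levels than activated neutrophils of several inflammatory genes beyond the 4 of the rule. The classes were cut from the same cells, so these values are a description. Of 1648 genes with enough UMIs, 147 (8.92%) were lower in members beyond 1.5-fold in both libraries and 65 (3.94%) were higher. Genes of the rule were not left out of these counts, and the activation limit itself puts its genes lower in members. Ccl4, a chemokine whose gene lies near Ccl3, stood at 281 CPM in KO members and 2235 CPM in KO activated neutrophils, and at 356 and 2572 CPM in the WT library. Csf3, which encodes G-CSF, had 3.21 CPM in KO members and 34.8 CPM in KO activated neutrophils, and 3.08 and 46.4 CPM in the WT library, but rests on 2 and 3 UMIs in the members.

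Of the 12 chemokine and cytokine genes that could be read in both libraries, 6 were lower in members and 0 higher beyond 1.5-fold. Il1rn, the interleukin-1 receptor antagonist, stood at 320 CPM in KO members against 1146 CPM in KO activated neutrophils, and at 293 against 814 CPM in the WT library. Tnf, the inflammatory cytokine, stood at 83.5 against 295 CPM in the KO library and 85.3 against 249 CPM in the WT library. Cxcl2 was lower by 1.08 and 0.86 on the log2 scale in KO and WT members, while it remained one of their leading genes. Il23a, which encodes a subunit of interleukin-23, was lower by 2.11 and 2.02.

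The tumour-associated neutrophil list followed the same direction, with 8 of 13 genes lower in members in both libraries and 0 higher. Cd274, the ligand of the T cell inhibitory receptor PD-1, stood at 196 CPM in KO members against 629 CPM in KO activated neutrophils, and at 286 against 535 CPM in the WT library. Ptgs2, the inducible enzyme of prostaglandin synthesis, stood at 525 against 989 CPM in the KO library and 457 against 836 CPM in the WT library. Of 10 survival and apoptosis genes, 4 were lower, among them Bcl2a1b, an anti-apoptotic gene with near-identical copies whose reads may be split, at 188 against 743 CPM in the KO library and 104 against 435 CPM in the WT library. Of 17 NF-kB response genes, 4 were lower and 0 higher; Nfkb1, which encodes the p105/p50 subunit, stood at 401 against 959 CPM in the KO library and 296 against 661 CPM in the WT library.

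Some regulators and receptors were higher in members. Cebpd, a C/EBP transcription factor, stood at 222 CPM in KO members against 115 CPM in KO activated neutrophils, and at 269 against 153 CPM in the WT library. Cxcr2, the receptor through which neutrophils leave the marrow and enter tissue, stood at 281 against 147 CPM in the KO library and 285 against 176 CPM in the WT library. The specific granule list had a median log2 ratio of 0.58 in the KO and 0.42 in the WT library over 7 genes, and the gelatinase granule list 0.24 and 0.44 over 7 genes, with 0 members of either list beyond 1.5-fold in both libraries. The median of all 1648 genes was 0.05 in the KO and 0.03 in the WT library. The 6 genes furthest above activated neutrophils in both libraries were Cadm4, Plekhg2, Eldr, Tnfaip8l2, Supv3l1 and Rassf5; Cadm4, a cell adhesion molecule, stood at 146 against 43.8 CPM in the KO library and 59.6 against 22.5 CPM in the WT library.

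**Figure D2:**
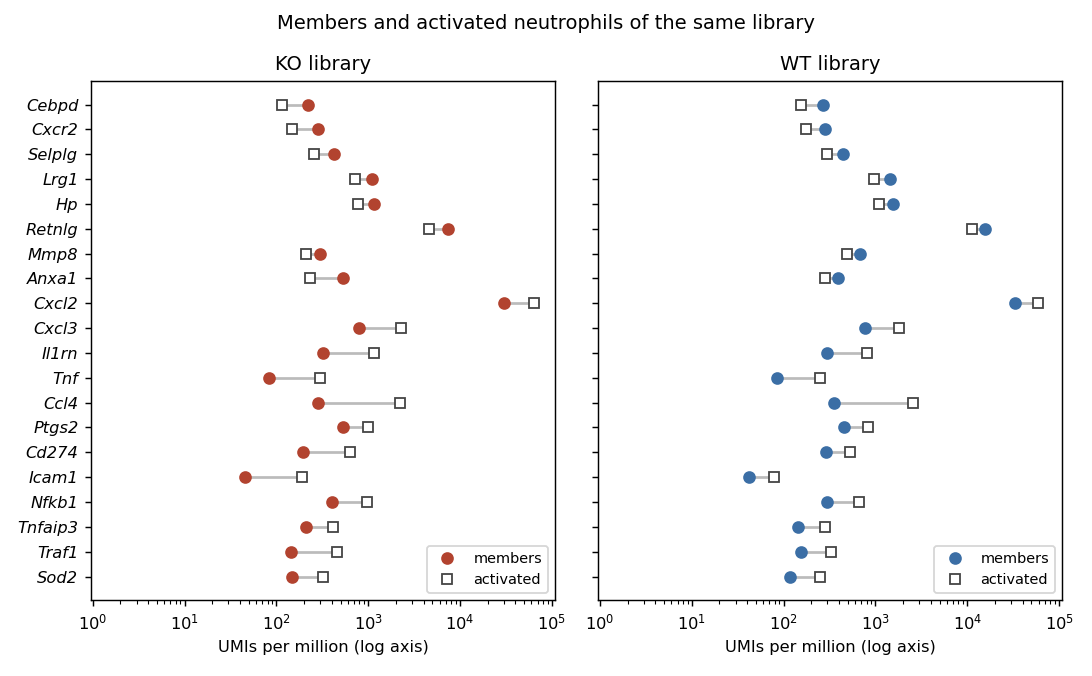
CPM (log axis) of 20 genes of the gene lists in members (filled circles) and activated neutrophils (open squares), KO library left and WT library right. Ccl4 is lower in members, 281 against 2235 CPM in the KO library, and Cxcr2 higher, 281 against 147 CPM; both run the same way in the WT library.

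Against immature neutrophils the members were lower in specific granule genes and higher in some immediate early genes. Only 26 KO barcodes were immature, and the immature class was not limited in activation UMIs, so this comparison differs in activation as well as in Ngp and Camp. Of 1111 genes, 99 (8.91%) were higher in members and 32 (2.88%) lower beyond 1.5-fold in both libraries. Here too genes of the rule were not left out of the counts. Cd177, a surface protein of specific granules, stood at 81.9 CPM in KO members against 419 CPM in KO immature neutrophils, and at 88.4 against 352 CPM in the WT library. Lcn2, which encodes the iron-siderophore binding protein lipocalin-2, stood at 1551 against 5196 CPM in the KO library and 2883 against 6600 CPM in the WT library. Of 9 specific granule genes 5 were lower. Of 10 immediate early genes 4 were higher, such as Egr1 at 1299 against 409 CPM in the KO library and 1021 against 544 CPM in the WT library.

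Several granule and late maturation genes were lower in KO members than in WT members. The most abundant of them was Retnlg (resistin-like gamma), at 7312 CPM in KO members (4554 UMIs) and 15424 CPM in WT members (15006 UMIs), a log2 ratio of -1.08 (95% counting interval -1.12 to -1.03). It was found in 83.1% of KO members and 96.0% of WT members, and at 1000 UMIs per barcode in 79.8% and 93.9%. Epithelial barcodes, which should lack it, held a UMI of it in 6.47% of KO and 12.5% of WT barcodes at that same depth, and in 47.7% and 72.2% at their own median depth of 16439 and 17215 UMIs. In KO empty droplets Retnlg stood at 275 CPM, against 697 CPM in WT empty droplets.

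Among these, 4 genes that recur in the results below (Retnlg, Mmp8, Ifitm6 and Lcn2) are shown with the 250 bases before their transcription start, from RefSeq on GRCm38.p6, 5′ to 3′ on the gene's strand. Capitals mark matches of TTGCNNAA on either strand, a C/EBP-type motif, which 9.57% of 32817 promoter windows of that length hold. The windows are Retnlg at chr16:48872358-48872607 (plus strand), Mmp8 at chr9:7558179-7558428 (plus), Ifitm6 at chr7:141016893-141017142 (minus) and Lcn2 at chr2:32387740-32387989 (minus).
Retnlg: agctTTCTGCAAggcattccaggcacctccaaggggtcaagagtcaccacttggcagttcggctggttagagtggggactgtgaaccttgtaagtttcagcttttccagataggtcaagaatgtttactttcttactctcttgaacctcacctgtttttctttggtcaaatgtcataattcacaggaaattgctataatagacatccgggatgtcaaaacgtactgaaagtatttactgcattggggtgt
Mmp8: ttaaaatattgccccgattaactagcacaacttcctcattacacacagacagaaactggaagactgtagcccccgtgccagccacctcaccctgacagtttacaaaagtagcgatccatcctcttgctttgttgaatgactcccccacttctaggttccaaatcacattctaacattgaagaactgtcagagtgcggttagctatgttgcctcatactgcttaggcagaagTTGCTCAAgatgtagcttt
Ifitm6: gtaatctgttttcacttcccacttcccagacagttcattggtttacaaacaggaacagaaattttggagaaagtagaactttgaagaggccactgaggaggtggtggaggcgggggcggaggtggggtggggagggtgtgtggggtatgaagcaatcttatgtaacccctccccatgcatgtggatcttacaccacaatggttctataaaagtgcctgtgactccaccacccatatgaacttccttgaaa
Lcn2: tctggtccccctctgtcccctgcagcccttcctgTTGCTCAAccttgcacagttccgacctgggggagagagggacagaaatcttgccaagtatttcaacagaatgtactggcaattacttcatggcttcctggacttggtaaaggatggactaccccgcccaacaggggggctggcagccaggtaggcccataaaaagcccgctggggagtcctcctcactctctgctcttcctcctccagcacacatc
Retnlg, Mmp8 and Lcn2 held 1 match each, 246, 19 and 216 bases before the start, and Ifitm6 held 0. A match is a stretch of letters and not a measured binding site.

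Mmp8, the neutrophil collagenase, stood at 300.3 CPM in KO members and 676 CPM in WT members, and Ifitm6, an interferon-induced transmembrane family gene, at 199 and 451 CPM. Wfdc21, which encodes a secreted whey acidic protein domain protein, stood at 446 CPM in KO members and 1114 CPM in WT members, with a log2 ratio of -1.32 (-1.51 to -1.13). Ly6g, the surface antigen used to mark mouse neutrophils, stood at 141 CPM in KO members and 349 CPM in WT members; its family has near-identical copies. Lcn2 stood at 1551 CPM in KO members and 2883 CPM in WT members. All 5 lay below WT by at least 0.79 on the log2 scale at the bound of their interval nearest 0. Ngp, a gene of the rule, had 2 UMIs in KO members and 48 UMIs in WT members. Among the 324 KO and 372 WT members with 0 UMIs of Ngp and Camp, the log2 ratio of Retnlg was -0.98 and that of Lcn2 -0.72. With all members these were -1.08 and -0.89. In that setting Mmp8, Ifitm6, Wfdc21 and Ly6g had -1.15, -0.98, -1.23 and -1.27.

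At the head of the ranking of genes lower in KO members stood Prok2, which encodes the chemokine-like prokineticin 2, with 2 UMIs (3.21 CPM) in KO members and 125 UMIs (128 CPM) in WT members. It was found in 0.307% of KO and 11.8% of WT members. The cystatin gene Stfa2, one of several near-identical copies, had 1 UMI in KO members and 50 UMIs in WT members. Ero1l, an oxidase of the endoplasmic reticulum, stood at 86.7 CPM in KO and 211 CPM in WT members, Atxn10 at 99.6 and 231 CPM, Klhdc4 at 35.3 and 91.5 CPM, and Tspo, a mitochondrial outer membrane protein, at 689 and 1176 CPM. The same 12 genes were also lower in KO activated neutrophils, with Retnlg at 4621 CPM in KO and 11279 CPM in WT activated neutrophils and Prok2 at 21.8 and 123 CPM. In activated neutrophils 3.58% of 8978 genes lay lower beyond 1.5-fold and 14.5% higher.

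Among all genes the balance ran the other way. Of 3416 genes with 50 or more UMIs, 738 (21.6%) stood higher in KO members beyond 1.5-fold and 120 (3.51%) lower, and the median gene with 20 or more UMIs had a log2 ratio of 0.29. With the sums scaled to the median gene instead of the total, 300 genes stood higher and 354 lower, so the direction of the balance depends on the scaling and list values below are best read against 0.29. Without the barcodes over 5000 UMIs, 452 of 2974 genes (15.2%) stood higher and 118 (3.97%) lower; from 20 UMIs, 21.3% of 5338 genes stood higher and 7.4% lower.

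Several of the 12 genes ranked furthest above WT rested on few barcodes. Sprr2d, Psca and Cnfn, genes of epithelial cells, stood at 270 CPM, 223 CPM and 136 CPM in KO members and had 0 UMIs in WT members; Cnfn was found in 0.307% of KO members, which is 1 barcode. Ppbp, a platelet chemokine, stood at 334 CPM in KO members and 5.14 CPM in WT members, in 3.99% and 0.708% of barcodes, and Gsto1, a glutathione transferase, at 246 and 25.7 CPM. Without the deep barcodes Sprr2d, Psca and Ppbp had 12, 8 and 11 UMIs left in KO members, against 0, 0 and 5 in WT members, and Cnfn had 0 in both. Without them the log2 ratio of Gsto1 was 0.78 against 3.26 with them, that of Ltf, lactoferrin of the specific granule, 0.49 against 3.17, and that of Saa1, an acute-phase protein, -0.86 against 2.61; the KO members then hold 19, 7 and 7 UMIs of them. Gsdmc4, of the gasdermin family, stood at 108 CPM in KO and 18.5 CPM in WT members, and Pecam1, an adhesion molecule of leukocytes and endothelium, at 67.4 and 10.3 CPM. These 2 moved less without the deep barcodes, Gsdmc4 from a log2 ratio of 2.54 to 1.93 and Pecam1 from 2.71 to 2.44. At 4% neutrophil genes Gsdmc4 had 0.36 and Pecam1 2.68.

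Some KO-higher genes were about as far apart without the deep barcodes. Supv3l1, a mitochondrial RNA helicase, stood at 207 CPM in KO members and 40.1 CPM in WT members, found in 15.6% and 4.25% of members, with a log2 ratio of 2.37 (1.84 to 2.93) and of 2.38 without those barcodes. Cc2d2b stood at 85.1 CPM in KO and 11.3 CPM in WT members, and Cfap43, a cilium-associated gene, at 83.5 and 13.4 CPM. Among the 68 KO and 88 WT members with under 2 UMIs of epithelial, T and B cell markers, Supv3l1 had a log2 ratio of 0.65, Cc2d2b one of -0.25 and Cfap43 one of 3.08. In the ranking without the deep barcodes Cxcr4, the receptor that holds neutrophils in the marrow and marks aged ones, stood at 170 CPM in KO and 61.4 CPM in WT members, and Dusp2, a phosphatase that acts on MAP kinases, at 87.8 and 24.8 CPM. The antiviral gene Ifi27l2a stood at 437 CPM in KO and 178 CPM in WT members there.

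**Figure D3:**
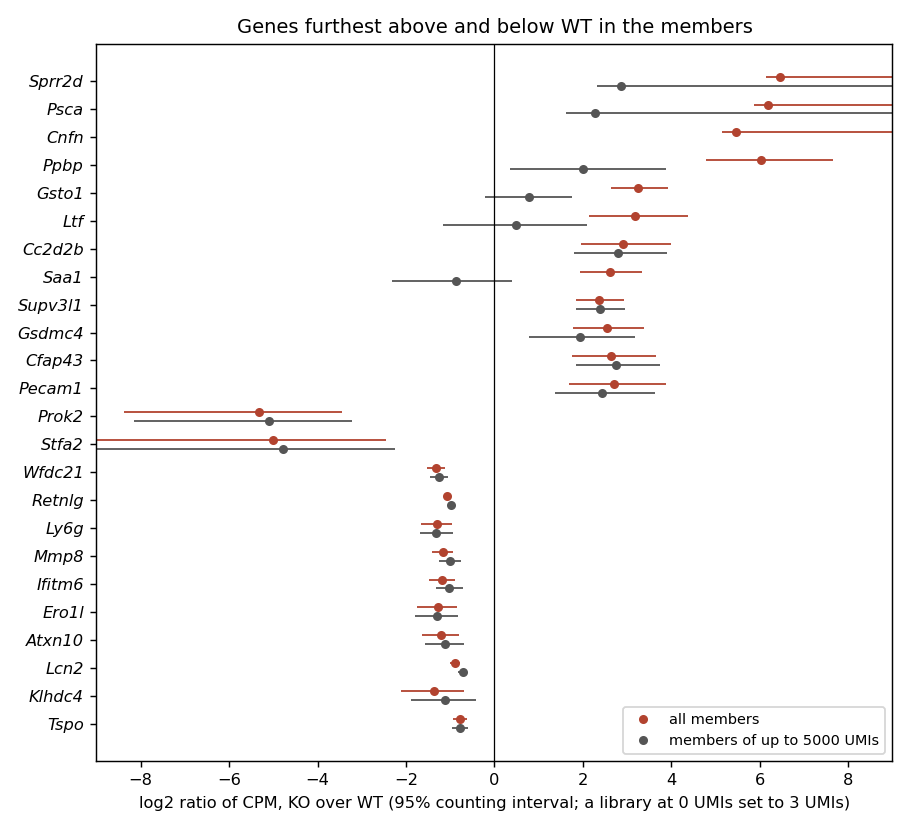
Log2 ratio of CPM in KO members over WT members (x axis) of the 12 genes ranked highest and the 12 ranked lowest, with 95% counting intervals, for all members (red) and members of up to 5000 UMIs (grey). A library at 0 UMIs was set to 3 UMIs, so the points of Sprr2d, Psca and Cnfn are bounds; no grey point is drawn where both libraries hold 3 UMIs or fewer, as for Cnfn. Without the deep barcodes all 12 lower genes still lie below 0, while Sprr2d, Psca, Ppbp, Gsto1, Ltf and Saa1 lie much nearer 0 or across it.

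The granule lists lay below the median gene and the interferon-gamma and MHC class I lists above it. In the specific granule list 7 of 9 genes lay below 0 (median -0.44, and -0.62 without the deep barcodes), 3 of them beyond 1.5-fold (Lcn2, Ifitm6 and Wfdc21) and 1 above it (Ltf), where 5.48% of all 6095 genes with 20 or more UMIs lay below and 29.0% above. In the gelatinase granule and late maturation list 6 of 9 lay below 0 (median -0.23), 1 above 1.5-fold and 3 below it: Retnlg, Mmp8 and Padi4, the enzyme that citrullinates histones in extracellular traps. All 7 genes of the NADPH oxidase, which makes the oxidant burst, lay below 0 (median -0.30), though 1 of them lies just above it when mitochondrial and ribosomal genes are left out of the totals; Cybb, its catalytic subunit, stood at 24.1 CPM in KO and 49.3 CPM in WT members, below its empty-droplet levels of 46.8 and 65.9 CPM. Of 18 glycolysis genes 16 lay below 0 (median -0.26) with 0 beyond 1.5-fold; Gapdh stood at 2139 CPM in KO and 2886 CPM in WT members.

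Of 9 interferon-gamma response genes, 8 lay above 0 and 5 beyond 1.5-fold, where 29.0% of all genes did (median 0.92, and 0.76 without the deep barcodes). The sums rested on few members: the list summed to 777 CPM in KO members and 583 CPM in WT members, near the 692 and 566 CPM of the empty droplets. No UMI of it was found in 52.1% of KO and 44.8% of WT members, and the 33 KO members richest in it held 52.1% of its UMIs. Gbp2, a GTPase that attacks intracellular pathogens, stood at 73.9 CPM in KO members and 31.9 CPM in WT members, found in 7.06% and 4.95% of members. Irf1, a transcription factor that interferon-gamma induces, stood at 167 CPM in KO and 87.4 CPM in WT members, against 101 and 90.1 CPM in the empty droplets, and Igtp, an immunity-related GTPase, at 30.5 and 10.3 CPM. Cxcl10, the interferon-induced chemokine, was below its empty-droplet level in both libraries. Cd274, also on that list, ran the other way, at 196 CPM in KO members and 286 CPM in WT members.

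All 13 MHC class I genes lay above 0 with totals as the scale, H2-D1 by 0.03 only and on the other side with median-of-ratios scaling, and 8 of them beyond 1.5-fold, against 29.0% of all genes. The median was 0.64. Without the deep barcodes it was 0.36, with 3 of 10 genes beyond 1.5-fold. In that setting 21.3% of 5338 genes stood higher beyond 1.5-fold and the median of all genes was 0.19, so the list lay nearer to the background. H2-K1, a class I heavy chain, stood at 742 CPM in KO and 488 CPM in WT members, against 594 and 490 CPM in the empty droplets, and B2m, the light chain, at 458 and 322 CPM. Tap1, a peptide transporter, stood at 45.0 CPM in KO and 21.6 CPM in WT members and Psmb9, an immunoproteasome subunit, at 61.0 and 24.7 CPM. H2-D1 hardly differed, at 1394 and 1366 CPM. The interferon-gamma and MHC class I lists had medians of 1.09 and 0.47 in activated neutrophils. Over 17 alternative settings the interferon-gamma median ran between 0.36 and 1.11 and the MHC class I median between 0.28 and 0.85. The interferon-gamma low of 0.36 came from members with 3 or more UMIs of Retnlg, Mmp8 and Ifitm6, a setting chosen after seeing the data. The median of all genes was 0.30 there, so the list lay little above it. In those members the interferon-gamma list summed to 642 CPM in the KO and 568 CPM in the WT library. In members with 0 UMIs of these 3 genes it summed to 1486 and 915 CPM, the WT value from 15 barcodes.

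The counts of the other inflammatory lists are to be read against the 29.0% of all genes that lay higher beyond 1.5-fold and the 5.48% that lay lower. In the chemokine and cytokine list 4 of 18 genes lay above and 3 below (median 0.08); Osm, oncostatin M, stood at 565 CPM in KO and 877 CPM in WT members, and Cxcl1 at 156 and 48.3 CPM, below its empty-droplet levels of 211 and 218 CPM. The NF-kB list had a median of 0.25, with Relb and Zc3h12a, a nuclease that degrades inflammatory mRNAs, above and Nfkbid, an atypical inhibitor of NF-kB, below. In the type I interferon list 4 of 14 lay above, a share at that background (median 0.10), of which Isg15, a ubiquitin-like protein, stood at 316 CPM in KO and 147 CPM in WT members. In the survival and apoptosis list 7 of 15 lay above and 0 below (median 0.57, and between -0.04 and 0.66 over the alternative settings); Bcl2a1b stood at 188 and 104 CPM, and Mcl1, the survival factor neutrophils depend on, at 2624 and 2930 CPM. The eicosanoid gene Alox5ap, needed for leukotriene synthesis, stood at 1057 CPM in KO and 1689 CPM in WT members.

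Of 12 heat shock genes 3 lay below beyond 1.5-fold (median -0.27) and 0 above, Hspa1a at 106 CPM in KO and 165 CPM in WT members, both below the empty droplets at 156 and 368 CPM. Of 13 hypoxia genes 2 lay above and 3 below (median -0.06). The 19 immediate early genes had a median of 0.14, the 19 tumour-associated neutrophil genes -0.01, and the 10 adhesion genes 0.07. MHC class II genes, which neutrophils make little of, summed to 641 CPM in KO and 413 CPM in WT members, against 1449 and 2457 CPM in the empty droplets. The 33 KO members richest in these genes held 69.2% of these UMIs, and the list median was 0.24 with the deep barcodes and -0.41 without them.

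**Figure D4:**
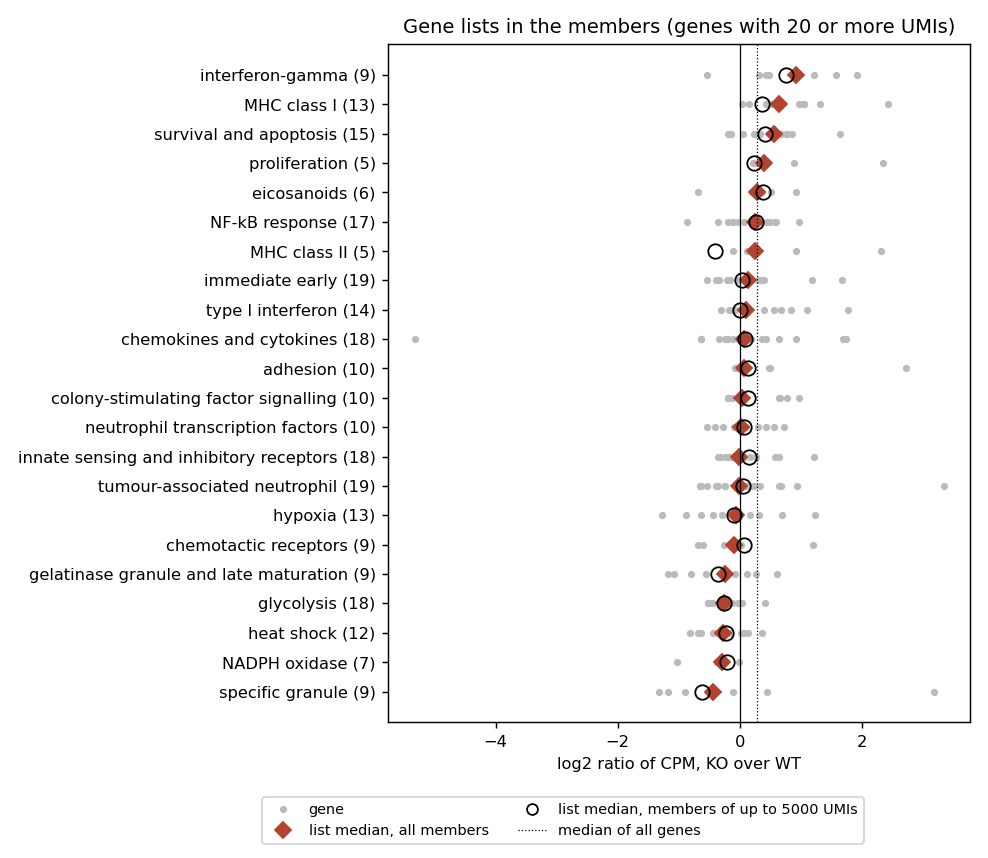
Log2 ratio of CPM in KO members over WT members for each gene list (number of genes with 20 or more UMIs in brackets). Grey points are genes, red diamonds list medians, open circles list medians without members over 5000 UMIs, and the dotted line the median of all genes, 0.29; the interferon-gamma list lies furthest above it and the specific granule list furthest below 0.

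Members varied among themselves along the late maturation genes, and the libraries differed in where their members lay. Members were split by their UMIs of Retnlg, Mmp8 and Ifitm6 into 0, 1 or 2, and 3 or more. The KO library had 52, 45 and 229 members in these ranges, and the WT library 15, 19 and 390, so that 70.2% of KO and 92.0% of WT members lay in the highest range. At 1000 UMIs per barcode, members with 0 UMIs were 19.3% in the KO library (15.2 to 24.0%) and 5.42% in the WT library (3.47 to 8.03%), so the difference in shares is also there at equal depth.

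Lcn2, Wfdc21 and Hp were highest in the range of 3 or more UMIs in both libraries, and Cxcr2 was not, at 320, 332 and 268 CPM in KO members from the range of 0 UMIs to that of 3 or more. S100a8 helped to choose the members and is given as a description only. In KO members it stood at 21912, 28980 and 39300.4 CPM over the 3 ranges, and in WT members at 21346, 21421 and 64791 CPM. Lcn2 stood at 576, 709 and 1827 CPM in KO members and at 261, 830 and 3042 CPM in WT members. Cd274 ran against them, at 461, 241 and 146 CPM in KO members and 784, 464 and 265 CPM in WT members. At 1000 UMIs per barcode it stood at 476, 345 and 141 CPM in KO members. In WT members it stood at 565, 250 and 268 CPM there, with 13 and 9 UMIs in the ranges below 3, so the WT fall was not steady. Fth1, the ferritin heavy chain that stores iron, stood at 37023 CPM in KO members with 0 UMIs and 21222 CPM in those with 3 or more, and at 50795 and 28366 CPM in WT members. The WT ranges below 3 UMIs hold 15 and 19 barcodes and their values are correspondingly uncertain. Among members with 3 or more UMIs Lcn2 was still lower in the KO library, 1827 against 3042 CPM in the WT library.

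**Figure D5:**
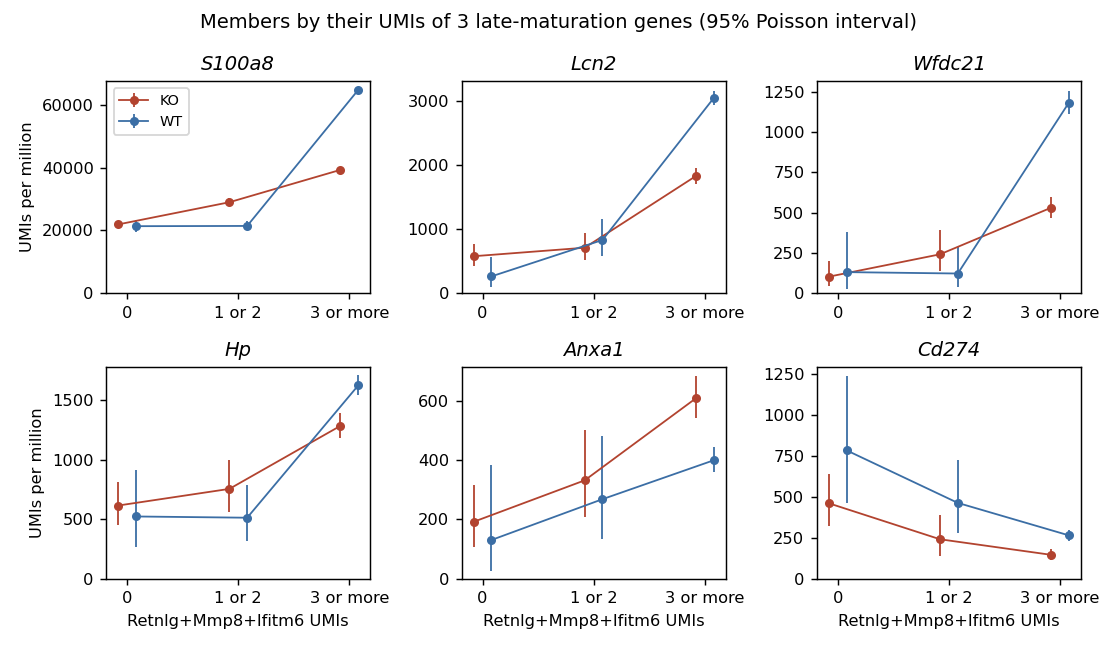
CPM (y axis) of 6 genes in members grouped by their summed UMIs of Retnlg, Mmp8 and Ifitm6 (x axis), KO in red and WT in blue, with 95% Poisson intervals. S100a8, Lcn2, Wfdc21 and Hp are highest at 3 or more UMIs in both libraries and Cd274 is highest at 0, for example 461 CPM in KO and 784 CPM in WT members.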

How the data were processed

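Each deposited matrix gives UMI counts as whole numbers, for every gene and droplet barcode, including the empty ones. Cell Ranger 4 wrote both, per the file headers; mm10 and Seurat appear in the submitters' processing notes. No source used here names the annotation release. From these counts, barcodes were kept and classed by the limits above, UMIs were added up within a class and library, and sums were scaled to CPM. Levels carry exact Poisson intervals, log2 ratios exact conditional binomial ones and shares Clopper-Pearson ones, all at 95% and for counting error only. A library at 0 was set to 3 counts. No test was run, since each genotype has 1 library. The interval code was run on simulated Poisson counts with known folds, the model that the intervals assume. A first run of a single draw missed its limit, and more draws were then pooled with a changed limit. UMIs gathered in few barcodes were not simulated, so the run does not cover genes held by few members.

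Genes were compared from 50 UMIs over both libraries, or 20 for list members, and counted beyond 1.5-fold. Named genes are the 12 highest and 12 lowest by the interval bound nearest 0. They stood at 30 CPM or more and not below the empty droplets in the higher library. The genes of the rule were set aside, with those for mitochondrial, ribosomal, haemoglobin, immunoglobulin and T cell receptor products and unnamed models. Genes of the Y chromosome, Xist and Tsix were also left out, and other X-linked genes were kept. By mean level the 15 highest were taken, against each other class the 6 highest and 6 lowest, and per list up to 4 genes beyond 1.5-fold with the most UMIs, else 2. Other genes were named after their values were seen. Scrublet, at 0.8% per 1000 barcodes, marked 18 KO and 29 WT members, which were kept. The members, lists and limits were chosen with earlier results of these data known. Promoter windows come from RefSeq on GRCm38.p6. The software was Python 3.11.15 with scanpy 1.11.5, numpy 2.4.6, pandas 2.3.3, scipy 1.17.1 and matplotlib 3.10.9.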

Additional observations from a re-analysis of the deposited data

Results flagged for a closer look

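The KO to WT ratios in members and in activated neutrophils were compared for the 78 genes taken from the ranking or picked from the gene lists. For 4 of them the ratio in members lay beyond 1.5-fold and ran opposite to that in activated neutrophils, with both counting intervals clear of 0. The difference itself was not tested. Saa1 had a log2 ratio of 2.61 in members and -0.34 in activated neutrophils, and -0.86 in members once barcodes over 5000 UMIs were left out. Nfkbid had -0.86 in members and 0.14 in activated neutrophils, and -0.71 in members without those barcodes. Bax, a pro-apoptotic gene, had 0.67 in members and -0.26 in activated neutrophils, and 0.46 (-0.03 to 0.95) without those barcodes. Spp1, osteopontin, had -0.65 in members and 0.17 in activated neutrophils, and -0.50 without those barcodes. Bax and Spp1 lay below their empty-droplet levels in KO members (272 and 197 CPM).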

How the results depend on the processing

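No paired analysis was possible because each genotype has 1 library. The member share of neutrophils was lower in the KO library in every setting run, by -0.94 on the log2 scale as reported, -1.59 with 2000 UMIs per barcode and -0.64 with under 6 activation UMIs; the share of kept barcodes, -0.49, was -1.73 and -0.19 there and -0.74 without barcodes over 5000 UMIs. The number of genes compared differed between settings, so counts are given with it. Genes higher numbered 738 of 3416 as reported, 438 of 2858 at 4% neutrophil genes and 166 of 1134 at 0 activation UMIs. They numbered 122 of 739 without barcodes with 2 or more epithelial, T or B cell marker UMIs and 300 of 3416 with median-of-ratios scaling. At 20 and 100 UMIs per gene they numbered 1769 of 6095 and 295 of 1985, and without barcodes over 5000 UMIs 452 of 2974. Genes lower numbered 120 of 3416 as reported, 239 of 2329 at 2000 UMIs per barcode, 73 of 1134 at 0 activation UMIs and 54 of 739 without marker barcodes. They numbered 354 of 3416 with median-of-ratios scaling, and 334 of 6095 and 67 of 1985 at 20 and 100 UMIs per gene. Of 22 lists 13 had medians above 0, but 7 at 2000 UMIs per barcode and 4 with median-of-ratios scaling. Of 1600 other values 81 took the other sign, 59 of them list medians (9 of these with median-of-ratios scaling) and 22 values of genes beyond 1.5-fold as reported; the cause was not tested. The genes were, at 2000 UMIs per barcode Hspb1 (0.12), Rsad2 (-0.11) and P4ha1 (0.57); at 4% neutrophil genes Saa1 (-0.93); at 0 activation UMIs Saa1 (-0.73), Ero1l (0.30), Hspa1a (0.92), Vegfa (0.15) and Jak2 (-0.23); under 6 activation UMIs Cish (-0.045); thinned to 1000 UMIs Psmb10 (-0.082), Spp1 (0.054) and Tnfrsf23 (0.088); without marker barcodes, which leaves 68 KO and 88 WT members, Cc2d2b (-0.25), Ero1l (0.070), Relb (-0.023), Hspa1a (0.15), Igtp (-0.83), Bcl2a1b (-0.10) and Birc2 (-0.25); with free RNA subtracted Hspb1 (0.54); and without barcodes over 5000 UMIs Saa1 (-0.86). Retnlg (-1.36 to -0.81), Wfdc21, Mmp8 and Lcn2 stayed below 0 in every setting run. At 1558 and 2172.5 UMIs per median member, genes under 20 summed UMIs could not be compared.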

Other observations

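Some receptors and regulators outside the granule programme are given here as single genes. Beyond 1.5-fold, 2 of 18 innate sensing genes, 1 of 10 neutrophil transcription factors and 4 of 10 colony-stimulating factor signalling genes stood higher in KO members. Of all genes 29.0% did. None of these 3 lists had a gene lower beyond 1.5-fold. Of 9 chemotactic receptors 1 stood higher and 2 lower, where 5.48% of all genes stood lower. Treml4, a receptor of the TREM family, stood at 172 CPM in KO members and 74.0 CPM in WT members, and at 111 and 46.9 CPM in activated neutrophils. Tlr4, the lipopolysaccharide receptor, stood at 153 CPM in KO members and 97.6 CPM in WT members. Runx1, a haematopoietic transcription factor, stood at 345 CPM in KO and 209 CPM in WT members. Spi1, which encodes PU.1, stood at 568 and 749 CPM, within 1.5-fold. Jak2, a kinase that signals below cytokine receptors, stood at 231 CPM in KO and 146 CPM in WT members. Among chemotactic receptors Hcar2 stood at 501 CPM in KO and 804 CPM in WT members and Fpr1, a formyl peptide receptor, at 204 and 308 CPM.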
